A study of Mus musculus with 9 samples.

Results

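Toll-like receptors and the proteins that serve them were followed across the cell classes of mouse bone marrow in 3 strains. The 9 genes were taken by symbol, from a list made with earlier results of these data known. They were *Tlr1*, *Tlr2*, *Tlr4*, *Tlr7*, *Tlr9*, *Tlr13*, *Unc93b1*, *Cd14*, and *Myd88*, out of 31053 genes counted. Single cell libraries came from femur marrow of 9 female mice aged 9 to 10 weeks, 3 each of NZB, NZW, and NZBWF1. NZB stands for New Zealand Black and NZW for New Zealand White. NZBWF1 mice were the offspring of NZW females and NZB males and develop a lupus-like disease with age, whereas the inbred parents served as the comparison. The labels name no treatment or transgene, and red cells were lysed during preparation. Each mouse gave 1 library, so the mouse was the replicate in every comparison.

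Toll-like receptors recognize molecules of microbes and start innate responses. *Tlr2*, alone or paired with *Tlr1*, binds bacterial lipoproteins at the cell surface, and *Tlr4* binds lipopolysaccharide that *Cd14* hands over. *Tlr7*, *Tlr9*, and *Tlr13* sit in endosomes and bind single-stranded RNA, unmethylated CpG DNA, and bacterial ribosomal RNA, respectively. *Unc93b1* is the escort that carries these nucleic acid sensors from the endoplasmic reticulum to endosomes. *Myd88* is the adaptor below all of these receptors, through which they reach NF-kappaB and interferon regulatory factors. Monocytes and neutrophils are known for the surface receptors, whereas plasmacytoid dendritic cells are known for *Tlr7* and *Tlr9* and for the type I interferon made through them. Nucleic acid sensors are of interest in lupus because self RNA and DNA can be ligands.

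The genes lie apart in the genome (GRCm38, GENCODE vM21), and all are protein-coding. *Tlr2* lies at chr3:83836272-83841767 and *Tlr1* at chr5:64924679-64933563, both on the minus strand. *Tlr4* lies at chr4:66827584-66930284 on the plus strand. *Tlr9* lies at chr9:106222598-106226883 on the plus strand and *Myd88* at chr9:119335934-119341411 on the minus strand. *Unc93b1* lies at chr19:3935186-3949340 on the plus strand and *Cd14* on another autosome. *Tlr13* (chrX:106143204-106160493, plus strand) and *Tlr7* (chrX:167304929-167330558, minus strand) are X-linked, so an NZBWF1 female has an allele of each from both parents.

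Promoters of 5 of the 9 genes, in 6 sequences, were found in the RefSeq table (GRCm38.p6), from 250 bases before to 50 bases after a transcript start. Those of *Tlr2* and *Tlr13* are shown because the level of *Tlr2* differed between strains in monocyte-like and neutrophil-like cells, whereas that of *Tlr13* differed between classes and passed no strain test. Both are reference sequence, and the alleles of the 3 strains were not analysed here. Capitals mark matches to a kappaB sequence (GGGANTTCC, or GGAANTCCC on the other strand) and to the core of PU.1 sites (GAGGAA, or TTCCTC on the other strand).
Tlr2, chr3:83841559-83841858, minus strand: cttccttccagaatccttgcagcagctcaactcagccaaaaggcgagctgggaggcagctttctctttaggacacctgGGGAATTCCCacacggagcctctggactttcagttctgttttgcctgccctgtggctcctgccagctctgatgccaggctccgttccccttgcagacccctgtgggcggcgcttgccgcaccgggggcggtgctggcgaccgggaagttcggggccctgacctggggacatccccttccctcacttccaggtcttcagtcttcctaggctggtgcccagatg
Tlr13, chrX:106143025-106143324, plus strand: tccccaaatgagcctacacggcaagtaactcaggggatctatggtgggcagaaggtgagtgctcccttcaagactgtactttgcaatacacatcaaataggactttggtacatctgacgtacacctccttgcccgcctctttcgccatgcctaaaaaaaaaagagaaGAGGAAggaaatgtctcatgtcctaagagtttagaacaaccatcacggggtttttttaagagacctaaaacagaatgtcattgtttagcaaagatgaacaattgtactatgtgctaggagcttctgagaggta
The *Tlr2* promoter held 2 overlapping kappaB matches, one on each strand, and 0 matches to the PU.1 core. A kappaB match was present in 1.68% of 32851 promoters of the same length. The *Tlr13* promoter held 1 PU.1 core, a motif present in 28.3% of all promoters, and 0 kappaB matches. These are letter matches, not sites of binding.

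Of 68444 deposited barcodes, 39051 were kept, with 1000 UMIs and 500 genes as minimum and 10% mitochondrial UMIs as maximum. Libraries held 8106539 to 18663189 UMIs in kept cells, with a median of 2182.5 to 2536.5 UMIs per cell. Cells were gated on marker genes into 16 classes, named with the ending "-like" because no protein was measured. A single class took 26494 cells (67.8%), no class took 8990 (23.0%), and 3567 (9.13%) passed more than 1 gate and were left out as possible doublets. Between libraries, 170 barcodes were shared. Free RNA amounted to 0.507% to 4.32% of the UMIs of a median cell. Levels are given in CPM, the UMIs of a gene scaled to a fixed total of UMIs of its class in a mouse, which compares a gene between classes but not genes with each other. Plasma, macrophage, conventional dendritic, and basophil or mast cell-like cells were too few for strain tests, which left 12 classes.

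Of the surface receptor genes and their carrier, *Tlr2*, *Tlr4*, and *Cd14* were highest in classes of the myeloid lineage, and *Tlr1* was not. *Tlr2* averaged 57.8 CPM in classical monocyte-like cells over the 9 mice, with a lowest value of 27.7, a median of 62.0, and a highest of 83.3. It stood at 50.8 CPM in nonclassical monocyte-like and 34.5 in mature neutrophil-like cells, but at 6.77 in granulocyte-monocyte precursor-like, 4.71 in immature neutrophil-like, and 0.51 in erythroid cell-like cells. Macrophage-like cells averaged 59.8 CPM, from only 14 UMIs in 5 mice. In these cells the 7 markers of mature neutrophils summed to 117700 to 225200 CPM and the 8 markers of macrophages to 5246 to 13210, and the part of neutrophil RNA in their levels was not tested. In this and the following comparisons with the highest class, that class was picked after the levels were seen, and the adjusted p is over those 135 comparisons. The difference between classical monocyte-like and mature neutrophil-like cells was 0.74 on the log2(CPM + 1) scale, with the same direction in 9 of 9 mice (exact sign-flip permutation over mice, two-sided, p = 0.00391, adjusted 0.00995). Classical and nonclassical monocyte-like cells differed by 0.27, which did not pass (exact p = 0.18, adjusted 0.194).

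*Tlr4* had its highest mean in macrophage-like cells, at 51.9 CPM over 5 mice (range 21.6 to 86.2), again from few UMIs (12). With 5 mice the smallest exact p is 0.0625, so this position could not be tested to the threshold. By mean CPM, nonclassical (15.7, from 8 UMIs in 9 mice, range 0 to 45.8) and classical monocyte-like cells (15.2) came next. Mature neutrophil-like (9.26), stem and progenitor cell-like (8.62, from 4 UMIs in 7 mice), immature neutrophil-like (7.68), and precursor-like cells (6.79) followed. By mean log2(CPM + 1), nonclassical monocyte-like cells (2.65) came after classical monocyte-like (3.89), mature (3.33) and immature neutrophil-like (3.00), and precursor-like cells (2.79). Averaged over the strains, *Tlr4* was therefore at similar levels along the neutrophil classes, unlike *Tlr2*. This did not hold in NZW alone. Each NZW mouse stood lower in immature neutrophil-like cells, as given below, than the lowest mature neutrophil-like value of any mouse (6.45 CPM). Plasmacytoid dendritic cell-like cells had 4 *Tlr4* UMIs in all, a mean of 1.02 CPM.

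*Cd14*, the carrier of lipopolysaccharide, averaged 56.0 CPM in mature neutrophil-like cells (range 42.9 to 71.6 over 9 mice) and 30.6 CPM in classical monocyte-like cells (range 19.3 to 54.9). The log2 difference between these classes was 0.93, higher in the neutrophils of 9 of 9 mice (exact permutation p = 0.00391, adjusted 0.00995). Precursor-like cells stood at 12.2 CPM and immature neutrophil-like cells at 7.13 CPM. Nonclassical monocyte-like cells averaged 57.8 CPM with a range of 0 to 171.9, and did not differ from mature neutrophil-like cells beyond that spread (exact permutation p = 0.297, adjusted 0.304).

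*Tlr1* was sparse, with 205 UMIs in all kept cells. Its highest mean was in mature B cell-like cells, 18.7 CPM (range 0 to 35.3), against 3.38 CPM in classical monocyte-like cells and 0.31 in plasmacytoid dendritic cell-like cells. In mature B cell-like cells 37 UMIs were counted, of which free RNA accounted for an expected 0.467%. The gene passed the filter on low counts in no class, and its strain values are given as counts only. Pooled over 3 mice, mature B cell-like cells had 1 UMI in NZB (6.06 CPM, exact 95% Poisson interval 0.153 to 33.7), 23 in NZW (29.7, interval 18.9 to 44.6), and 13 in NZBWF1 (23.6, interval 12.6 to 40.4). NZB had only 99 cells of that class in 3 mice, and the intervals, which cover counting error only, overlap.

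Of the endosomal receptors, *Tlr7* was highest in plasmacytoid dendritic cell-like cells. The mean was 73.9 CPM (lowest 35.5, median 73.3, highest 104.4), against 45.97 in nonclassical monocyte-like, 12.96 in classical monocyte-like, and 4.89 in mature neutrophil-like cells. Plasmacytoid dendritic cell-like cells exceeded nonclassical monocyte-like cells by a log2 difference of 0.73 in 7 of 9 mice (exact permutation p = 0.0312, adjusted 0.0479). Among comparisons of neighbours in the order, the same pair did not pass (adjusted exact p = 0.527). They exceeded classical monocyte-like cells by 2.35 in 9 of 9 mice (exact permutation p = 0.00391, adjusted 0.00995). A *Tlr7* UMI was present in 5.71% to 22.9% of the plasmacytoid dendritic cell-like cells of a mouse and in 0% to 0.465% of erythroid cell-like cells, although the latter were deeper (median of 9117 against 1716 UMIs).

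*Tlr13* had a different order. It was highest in nonclassical monocyte-like cells, at 112.8 CPM (lowest 50.4, median 117.6, highest 171.9), followed by classical monocyte-like (44.4) and mature neutrophil-like cells (21.9). Nonclassical exceeded classical monocyte-like cells by a log2 difference of 1.25 and mature neutrophil-like cells by 2.28, each in 9 of 9 mice (exact permutation p = 0.00391, adjusted 0.00995). As neighbours in the order, nonclassical and classical monocyte-like cells did not pass (adjusted exact p = 0.0879). In plasmacytoid dendritic cell-like cells, where *Tlr7* was highest, 2 *Tlr13* UMIs were counted in all (0.32 CPM). *Tlr9* was near the limit of detection everywhere, with 26 UMIs in all kept cells. Plasmacytoid dendritic cell-like cells held 10 of the 20 *Tlr9* UMIs in classes, a mean of 2.13 CPM, and precursor B cell-like cells 0. For NZW precursor B cell-like cells, a count of 0 allows up to 0.715 CPM, as a limit of 3 counts. Strain differences in *Tlr9* were not detectable at this depth.

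*Unc93b1*, the escort of these receptors, was found in more classes. It averaged 661.4 CPM in plasmacytoid dendritic cell-like cells (lowest 479.6, median 621.4, highest 830.1), 473.4 in conventional dendritic cell-like, and 393.2 in mature B cell-like cells. Monocyte-like cells held 347.4 (nonclassical) and 318.6 CPM (classical), and erythroid cell-like cells 5.404. Plasmacytoid dendritic cell-like cells exceeded mature B cell-like cells by a log2 difference of 0.76 and classical monocyte-like cells by 1.04, each in 9 of 9 mice (exact permutation p = 0.00391, adjusted 0.00995). In mature B cell-like cells, *Tlr7* (6 UMIs), *Tlr9* (1 UMI), and *Tlr13* (1 UMI) were barely counted. The class held 911 cells with a median of 1336 UMIs, so these counts do not show that the receptors were absent. Levels do not compare these genes with *Unc93b1*.

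*Myd88*, the shared adaptor, was the most even of the members across classes. Its means ran from 61.0 CPM in classical monocyte-like cells (range 33.8 to 86.8) through 57.5 in nonclassical monocyte-like, 40.9 in mature neutrophil-like, and 37.9 in plasmacytoid dendritic cell-like cells to 12.3 in erythroid cell-like and 3.00 in plasma cell-like cells. Classical monocyte-like cells exceeded mature neutrophil-like cells by a log2 difference of 0.53 in 8 of 9 mice (exact permutation p = 0.00781, adjusted 0.0192).

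**Figure D1:**
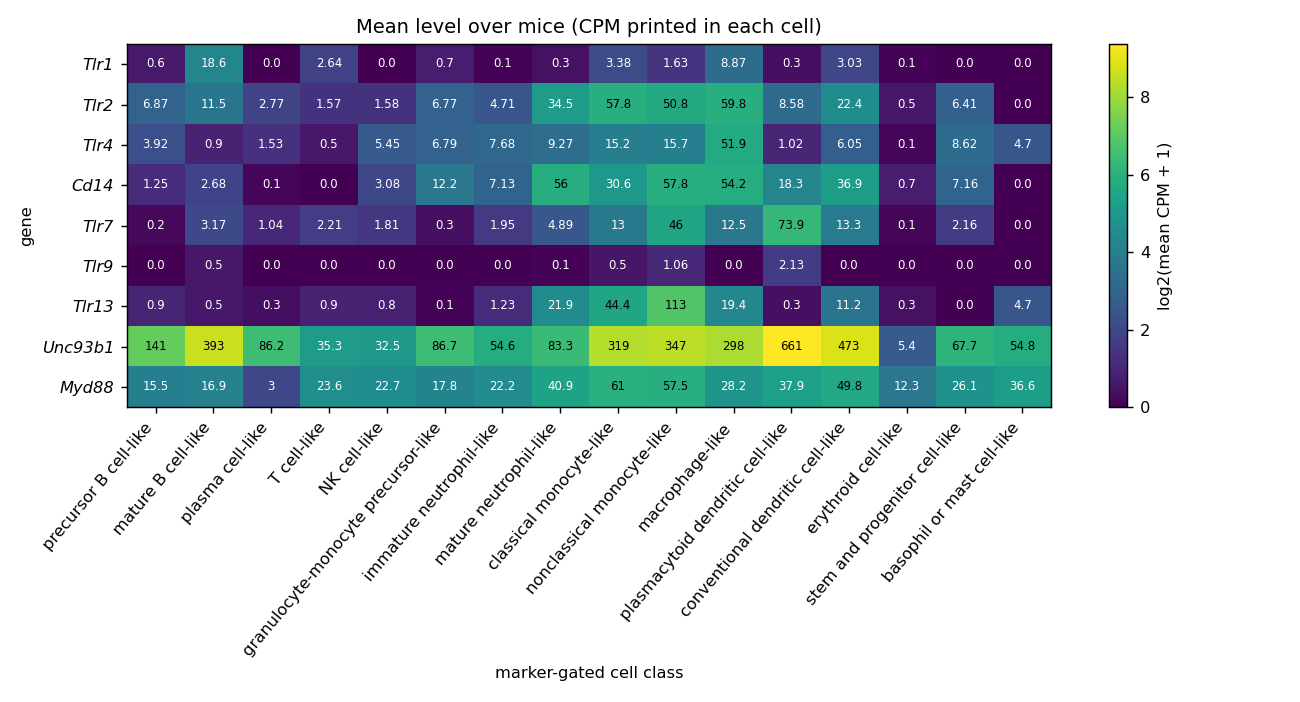
Mean CPM over mice of each gene (rows) in each marker-gated class (columns), with the color on a log2(mean CPM + 1) scale. *Tlr2*, *Tlr4*, *Cd14*, *Myd88*, and *Tlr13* were highest in monocyte-like, macrophage-like, or mature neutrophil-like cells, *Tlr7* and *Unc93b1* in plasmacytoid dendritic cell-like cells (73.9 and 661.4 CPM), and *Tlr1* in mature B cell-like cells (18.7 CPM).

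For each gene, classes were ordered by mean log2(CPM + 1) and neighbours in that order compared by exact permutation over mice. Of 135 neighbouring pairs, 0 passed after adjustment, with 11 at an unadjusted p under 0.05, and the smallest adjusted p was 0.0879. The 9 mice cannot give an exact p below 0.00391, and 6 pairs reached it. These were nonclassical over classical monocyte-like and classical monocyte-like over mature neutrophil-like cells for both *Tlr7* and *Tlr13*, and precursor B cell-like over precursor-like and mature over immature neutrophil-like cells for *Unc93b1*. In the comparison of the highest class with each of 15 other classes, chosen after the levels were seen, 12 were below for *Unc93b1* and 11 for *Myd88*, which describes the order only. No such count is given for the other members, since it would include classes with 0 to 3 UMIs, where depth and the pseudocount set the difference.

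Over the mean levels of the 16 classes, the genes with the most similar pattern were ranked by Pearson correlation among 11306 genes. These correlations describe 16 classes that share libraries and carry no test. *Tlr13* was closest to *Sirpb1b* (r = 0.96) and to *Tlr8*, another endosomal RNA sensor (r = 0.96). *Tlr7* was closest to *Gpr137b* (0.90) and *Gpr35* (0.88), and *Unc93b1* to *Themis2* (0.92) and *Pld4* (0.92), a nuclease of endosomes. *Tlr2* was closest to *Ifngr2* (0.92), a chain of the interferon gamma receptor, and *Sirpa* (0.90), and *Cd14* to *App* (0.94) and *Sirpa* (0.92). For *Tlr4* they were *Lima1* (0.91) and *Stard8* (0.89), for *Myd88* *Ehbp1l1* (0.92) and *Atg3* (0.92), for *Tlr1* *Pgap1* (0.85) and the B cell adaptor *Bank1* (0.83), and for the sparse *Tlr9* *Gm5086* (0.94) and *Sct* (0.90).

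Because levels and cell numbers both differ, the classes that held most UMIs of a gene were not always those with the highest level. Classical monocyte-like cells held 55.4% of the 941 *Tlr13* UMIs counted in classes, and mature neutrophil-like cells 32.6%. Of 1526 *Cd14* UMIs, 52.9% were in mature neutrophil-like cells, and of 1451 *Tlr2* UMIs, 45.5% were in classical monocyte-like and 34.7% in mature neutrophil-like cells. *Tlr7* differed in source between strains. Plasmacytoid dendritic cell-like cells held 69.7% of the *Tlr7* UMIs of NZB mice, 26.0% of those of NZW, and 46.2% of those of NZBWF1. These cells made up 11.1 ± 1.56%, 2.26 ± 0.22%, and 5.15 ± 1.02% of the kept cells of a mouse in the same order (mean ± SD, n = 3 mice).

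**Figure D2:**
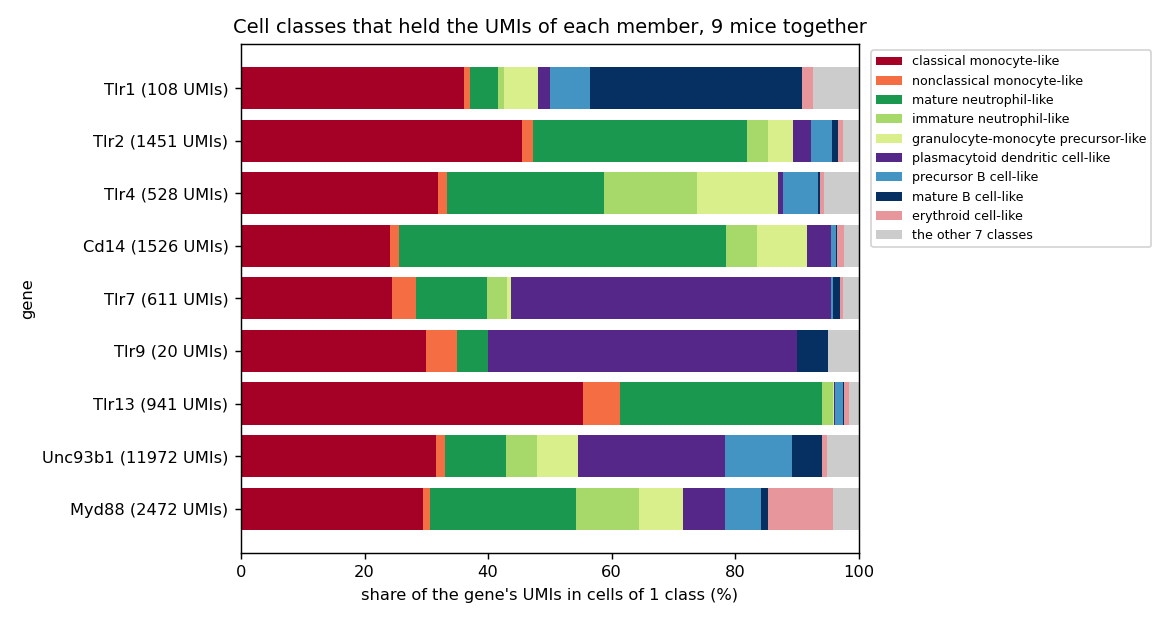
Share of each gene's UMIs (x axis, percent) held by each cell class, over the 9 mice together, with the number of UMIs in classes beside the gene name. Plasmacytoid dendritic cell-like cells held 51.9% of *Tlr7*, and classical monocyte-like cells 55.4% of *Tlr13*.

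To ask how the strains differed, UMIs were summed per mouse and class and tested with the edgeR quasi-likelihood method over all genes of the class. Of the 9 genes, 7 passed the filter on low counts in at least 1 class, which gave 29 tests per comparison, and *Tlr1* and *Tlr9* passed in none. Members that pass the filter are those with more UMIs, so the counts do not describe all members. Between NZB and NZW, 7 of 29 tests passed an adjusted p of 0.05, and all 7 were higher in NZB. Over all genes and classes, 8.91% of tests passed for this comparison, and 4.44% of all tests passed and were higher in NZB. The median log2 fold change was 0.24 over the 29 tests and -0.0079 over all genes tested. The 7 calls were *Tlr2*, *Tlr4*, and *Cd14* in classical monocyte-like cells, *Tlr2* in mature neutrophil-like cells, *Tlr4* in immature neutrophil-like cells, *Cd14* in precursor-like cells, and *Unc93b1* in plasmacytoid dendritic cell-like cells. Between NZBWF1 and NZB, 5 tests passed, 4 lower and 1 higher in NZBWF1, where 3.88% of all tests passed and 2% of all tests were lower in NZBWF1. Between NZBWF1 and NZW, 0 of 29 passed in edgeR, with 5 at an unadjusted p under 0.05 (8.47% of all tests) and 0 in DESeq2, and 1.13% of all tests passed. Against the mean of the parents' logs, 0 of 29 passed in edgeR, with 7 at an unadjusted p under 0.05 (7.5% of all tests) and 0 in DESeq2, and 0.529% of all tests passed. The comparisons share mice and are therefore given side by side.

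**Figure D3:**
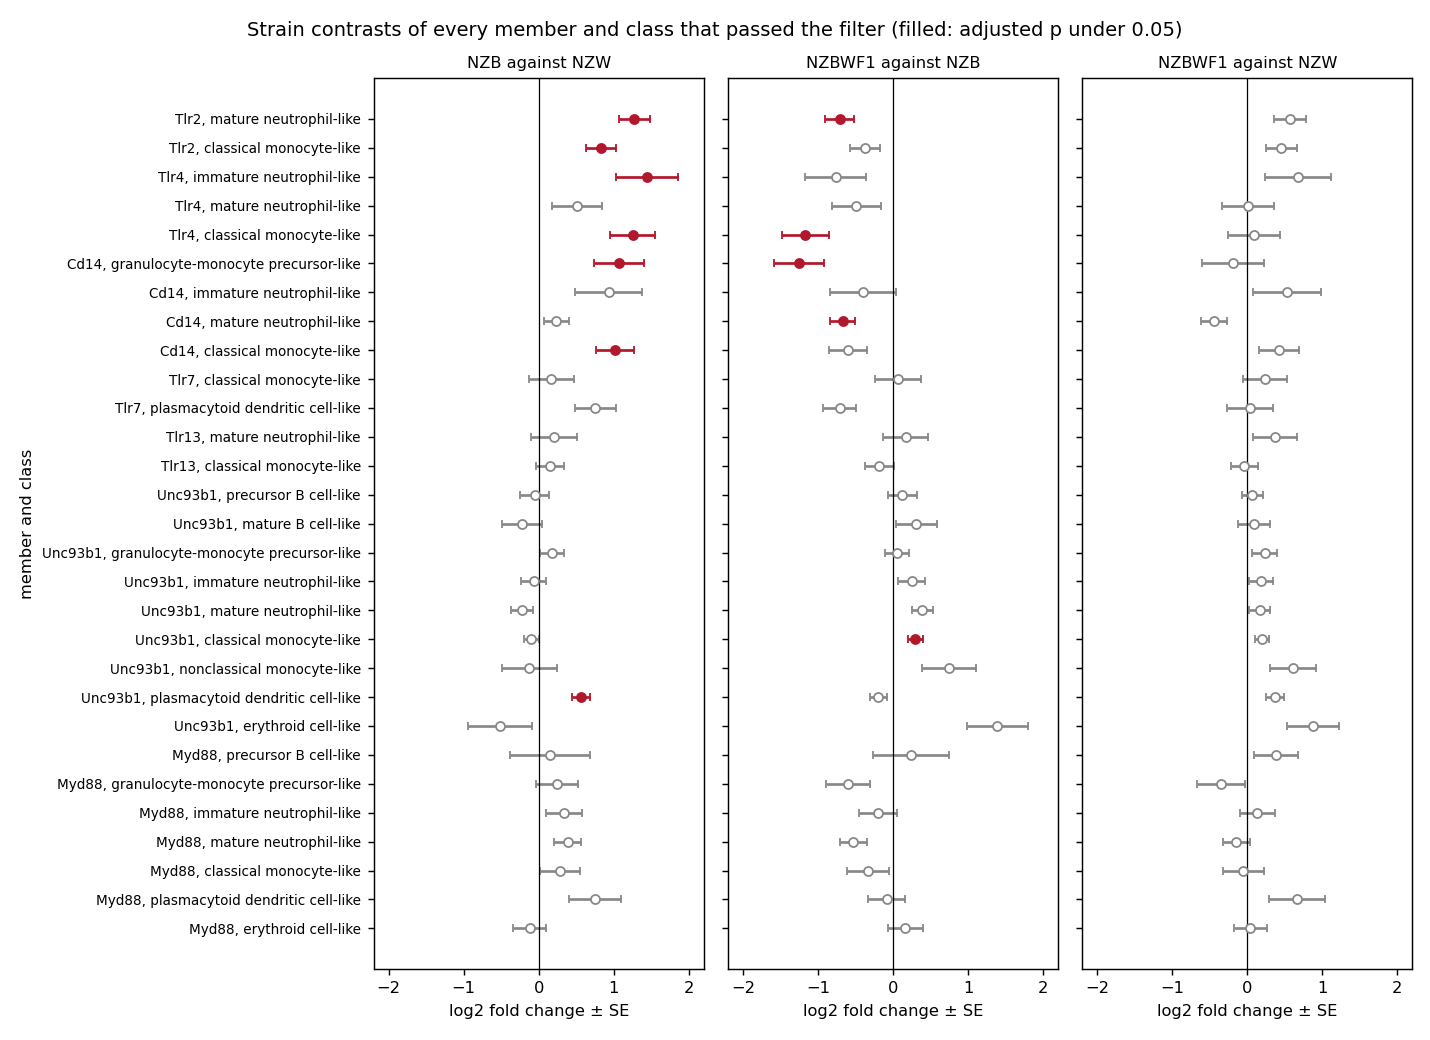
Log2 fold change ± SE (x axis) of every gene and class that passed the filter, for 3 comparisons of strains, with adjusted p under 0.05 in filled symbols. The 7 filled points for NZB against NZW lie to the right of 0, and 4 of the 5 for NZBWF1 against NZB to the left.

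*Tlr2* was higher in NZB in both classes in which it could be tested. In mature neutrophil-like cells, the NZB mice stood at 49.3, 42.9, and 48.3 CPM, the NZW mice at 26.2, 16.6, and 24.2, and the NZBWF1 mice at 28.5, 33.4, and 41.1. The NZBWF1 mice lay between the parents without overlap with either. NZB exceeded NZW by a log2 fold change of 1.27 (SE 0.206, edgeR adjusted p = 0.000271), in a class where 11.5% of genes passed. In classical monocyte-like cells the NZB mice stood at 68.8, 83.3, and 62.0 CPM, the NZW mice at 47.1, 27.7, and 52.4, and the NZBWF1 mice at 65.0, 46.1, and 67.3. NZB and NZW did not overlap, and NZBWF1 overlapped with both. NZB exceeded NZW by a log2 fold change of 0.82 (SE 0.199, edgeR adjusted p = 0.00348), in a class where 23.6% of genes passed. Without NZB replicate 2 it was 0.65 (edgeR adjusted p = 0.0577).

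*Tlr4* was higher in NZB in classical monocyte-like and immature neutrophil-like cells. Classical monocyte-like cells of the NZB mice stood at 19.5, 27.2, and 22.1 CPM, those of NZW at 10.8, 12.0, and 7.48, and those of NZBWF1 at 19.99, 6.26, and 11.8. NZB and NZW did not overlap, whereas the NZBWF1 mice spread over both. NZB exceeded NZW by a log2 fold change of 1.25 (SE 0.301, edgeR adjusted p = 0.00196). In immature neutrophil-like cells the values were 12.2, 11.9, and 10.3 CPM in NZB, 2.06, 5.36, and 5.402 in NZW, and 7.61, 6.81, and 7.47 in NZBWF1, so that the 3 strains did not overlap. Between NZB and NZW the log2 fold change was 1.44 (SE 0.410, edgeR adjusted p = 0.0150), where 8.2% of genes passed. It did not pass without NZB replicate 2 (1.37, edgeR adjusted p = 0.143), without NZW replicate 1 (1.17, edgeR adjusted p = 0.0790), or in DESeq2 (adjusted p = 0.0976). In mature neutrophil-like cells *Tlr4* did not pass (log2 fold change 0.50, 95% interval -0.15 to 1.16).

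*Cd14* was higher in NZB in classical monocyte-like and precursor-like cells. The classical monocyte-like cells of the NZB mice stood at 24.7, 54.9, and 44.1 CPM, those of NZW at 19.3, 24.1, and 22.5, and those of NZBWF1 at 21.7, 22.8, and 41.6. NZB replicate 1 lay only just above the NZW mice. Between NZB and NZW the log2 fold change was 1.02 (SE 0.252, edgeR adjusted p = 0.00432), and 0.69 without NZB replicate 2 (edgeR adjusted p = 0.104). In precursor-like cells the values were 18.6, 21.0, and 21.3 CPM in NZB, 5.76, 9.49, and 11.2 in NZW, and 4.86, 9.88, and 7.95 in NZBWF1. NZB was apart from both other strains there. Against NZW its log2 fold change was 1.06 (SE 0.333, edgeR adjusted p = 0.0288), where 9.69% of genes passed. This call was lost in edgeR without NZB replicate 2 (1.02, adjusted p = 0.142), NZB replicate 3 (1.06, adjusted p = 0.0646), NZW replicate 1 (0.87, adjusted p = 0.121), and NZW replicate 2 (1.09, adjusted p = 0.0800), and also in DESeq2 (adjusted p = 0.206). It depended on the gates as well, at 0.65 with stricter gates (edgeR adjusted p = 0.130) and 0.68 with cells of several gates assigned to a class (edgeR adjusted p = 0.0624), where 1276 cells had passed the gates of both precursors and classical monocytes.

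**Figure D4:**
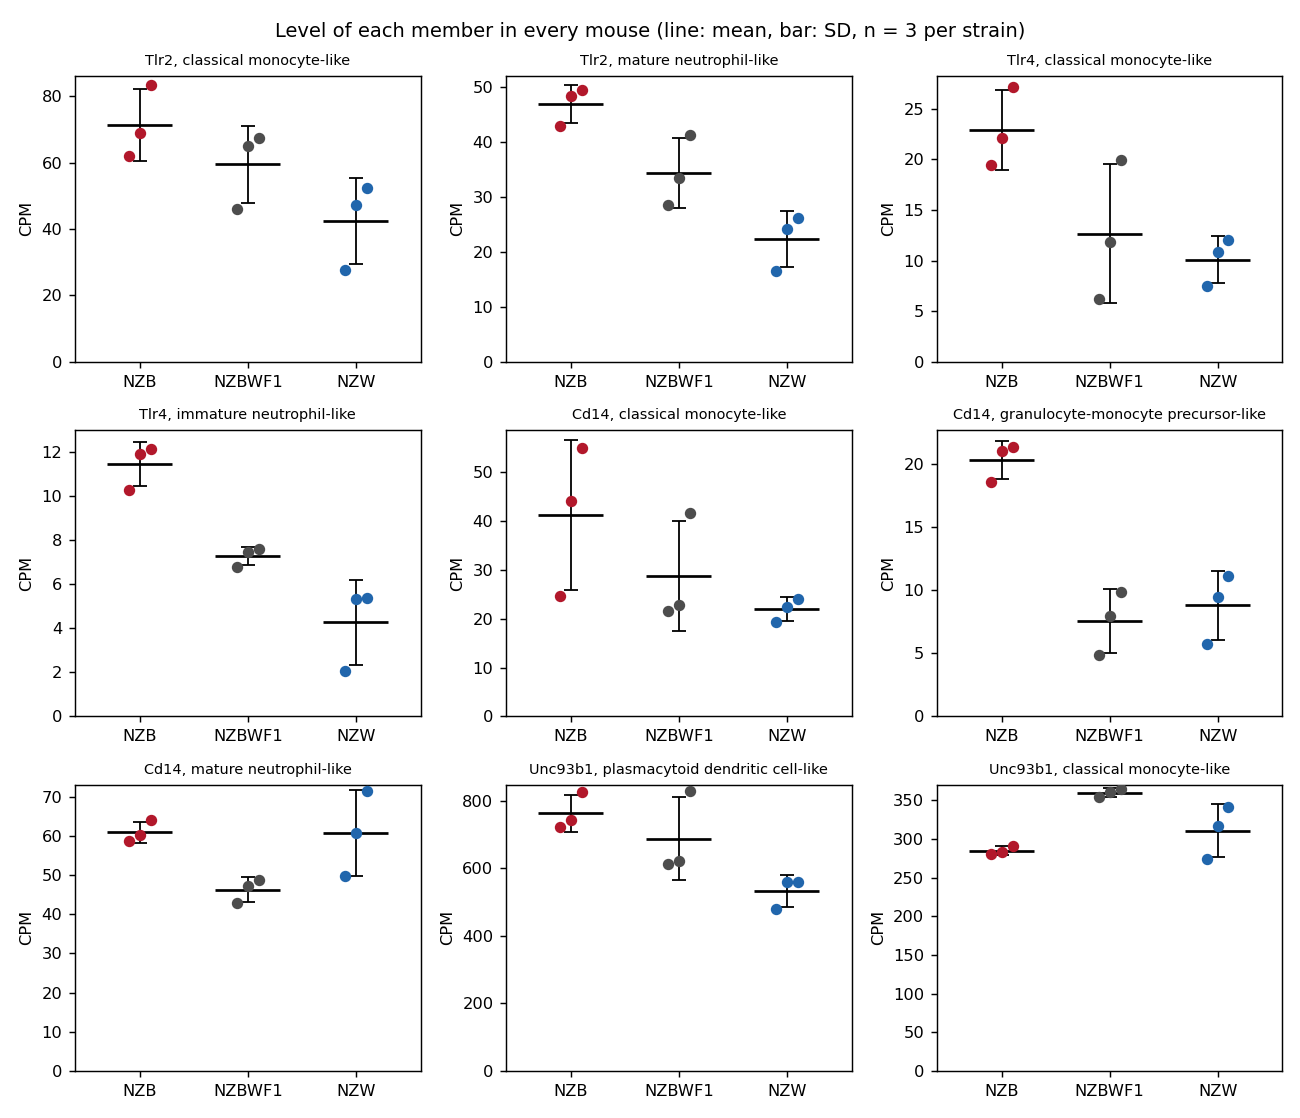
CPM (y axis, from 0) of each gene and class with a strain call, 1 point per mouse, with the mean (line) and SD (bar) of the 3 mice of a strain. NZB points lie above all NZW points for *Tlr2*, *Tlr4*, and *Cd14* in classical monocyte-like cells. The NZBWF1 points of *Cd14* in mature neutrophil-like cells (42.9 to 48.9 CPM) lie below those of both parents, but only the difference from NZB passed.

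The same classes differed between strains in other measures. A UMI of *Mki67*, *Top2a*, *Birc5*, or *Cdk1*, genes of dividing cells, was present in 60.0% to 79.1% of the classical monocyte-like cells of an NZB mouse, 38.0% to 39.6% in NZW, and 33.6% to 40.8% in NZBWF1. The median UMIs of these cells were 2853 in NZB, 1965 in NZW, and 1906 in NZBWF1. Markers of granulocyte-monocyte precursors (6 genes) summed to 1032 to 1582 CPM in classical monocyte-like cells of NZB and to 737.2 to 773 in NZW, all 6 with UMIs in each strain. The 6 markers of nonclassical monocytes summed to 223.8 to 254.6 CPM in NZB and 337.4 to 434.2 in NZW, with *Ace* and *Treml4* at 0 in both strains by the gate and *Cd300e* at 0 in NZW. When cells with UMIs of the 4 division genes were left out, the log2 fold changes of NZB against NZW in classical monocyte-like cells were 1.10 for *Tlr2* (edgeR adjusted p = 0.000150), 1.19 for *Tlr4* (0.0451), and 1.48 for *Cd14* (0.0154). In precursor-like cells, 89.3% to 93.1% held such UMIs in NZB and 62.6% to 78.0% in NZW, and the part of division in the *Cd14* difference there was not tested. In mature neutrophil-like cells such UMIs were in 5.01% to 16.3% of cells in NZB and 7.05% to 16.7% in NZW. The 6 markers of classical monocytes summed there to 13.1 to 19.4 CPM in NZB, with *Vcan* at 0, and to 25.1 to 59.0 in NZW. Some markers of other lineages were also lower there in NZB, whereas those of immature neutrophils were higher (125300 to 136000 CPM against 111800 to 122900 in NZW). Those of T cells (7 genes) summed to 18.7 to 27.0 CPM in NZB, with *Cd5* at 0, and 291.1 to 407.3 in NZW, with *Cd3e* and *Cd5* at 0, and those of the B lineage (5 genes) to 72.7 to 109.8 and 270.5 to 661.4. In classical monocyte-like cells the B lineage markers summed to 34.9 to 49.4 CPM in NZB and 174.0 to 213.5 in NZW. The part of these markers in the differences of *Tlr2*, *Tlr4*, and *Cd14* was not tested.

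*Unc93b1* in plasmacytoid dendritic cell-like cells was the endosomal member that passed between NZB and NZW. The NZB mice stood at 721.1, 744.2, and 825.4 CPM, the NZW mice at 479.6, 560.8, and 558.3, and the NZBWF1 mice at 830.1, 621.4, and 611.7. NZB and NZW did not overlap, and NZBWF1 was above all NZW mice. The NZB level exceeded that of NZW by a log2 fold change of 0.56 (SE 0.118, edgeR adjusted p = 0.000385), in a class where 7.34% of genes passed. It passed without each of the 9 mice. With at least 2000 UMIs and 1000 genes per cell it was 0.23 (edgeR adjusted p = 0.811), from 128, 44, and 61 cells per NZB mouse and 49, 24, and 42 per NZW mouse.

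The 6 markers of plasmacytoid dendritic cells summed to 7013 to 7217 CPM in the NZB mice, 5870 to 6186 in NZW, and 6388 to 6872 in NZBWF1. The 6 markers of classical monocytes summed to 174.3 to 230.8 CPM in NZB and 350.0 to 441.2 in NZW, with *Vcan* at 0 in NZW. The 8 markers of stem and progenitor cells, which include *Ly6a*, summed to 1178 to 1787 CPM in NZB (6 with UMIs), 81.5 to 142.3 in NZW (2 with UMIs), and 307.7 to 480.0 in NZBWF1 (5 with UMIs). Markers of plasma cells (136.4 to 169.2 CPM in NZB against 302.0 to 345.3 in NZW, 6 genes) and of conventional dendritic cells (479.2 to 506.3 against 685.8 to 824.2, 8 genes) were lower in NZB. So were those of the B lineage (124.7 to 139.8 against 201.4 to 470.2, 5 genes), mature B cells (37.1 to 55.0 against 124.7 to 190.5, 7 genes), and nonclassical monocytes (99.4 to 108.4 against 155.3 to 217.1, 6 genes). The stem and progenitor sum was also higher in NZB than in NZW in T cell-like (803.3 to 1025 against 167.2 to 381.6 CPM) and NK cell-like cells (147 to 380.2 against 0 to 14.2). It was lower in mature neutrophil-like cells (11.2 to 12.9 against 16.6 to 22.95). The part of these markers in the difference of *Unc93b1* was not tested. UMIs of the 4 division genes were in 7.99% to 9.46% of the plasmacytoid dendritic cell-like cells in NZB and 12.0% to 20.9% in NZW. Without cells with such UMIs the log2 fold change of *Unc93b1* was 0.55 (edgeR adjusted p = 0.000677). In the other 8 classes in which *Unc93b1* was tested, NZB and NZW did not differ at the threshold. For classical monocyte-like cells the log2 fold change of NZB against NZW was 0.69 lower than in plasmacytoid dendritic cell-like cells (SE 0.143, edgeR adjusted p = 0.000290 for the difference, mouse as block). For this pair of classes, 6.93% of all genes passed the same test.

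*Tlr7* had the same order of strains in plasmacytoid dendritic cell-like cells without passing in the main test. The NZB mice stood at 83.3, 99.2, and 104.4 CPM, the NZW mice at 67.1, 73.3, and 35.5, and the NZBWF1 mice at 102.3, 60.0, and 39.7. NZB and NZW did not overlap, while NZBWF1 spread from the NZW to the NZB range. The log2 fold change of NZB against NZW was 0.75 (SE 0.270, 95% interval 0.22 to 1.28, edgeR adjusted p = 0.0808), and that of NZBWF1 against NZB was -0.71 (edgeR adjusted p = 0.0685). The latter passed without NZBWF1 replicate 1, at -0.99 (edgeR adjusted p = 0.00423), and without cells with UMIs of division genes, at -0.70 (edgeR adjusted p = 0.0430). With no filter beyond 1 count, both passed, at 0.80 for NZB against NZW (edgeR adjusted p = 0.0427) and -0.72 for NZBWF1 against NZB (edgeR adjusted p = 0.0395). In classical monocyte-like cells, *Tlr7* had 10.8 to 16.7 CPM over the 9 mice, with a log2 fold change of NZB against NZW of 0.17 (95% interval -0.42 to 0.76).

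*Tlr13* passed no strain test, and its values were close between strains in 1 of its 2 tested classes. In classical monocyte-like cells the means were 46.04 ± 7.46 CPM in NZB, 44.0 ± 10.8 in NZW, and 43.2 ± 3.22 in NZBWF1 (SD, n = 3 mice). The log2 fold change of NZB against NZW was 0.15, with a 95% interval of -0.21 to 0.50, so a difference as large as that of *Tlr4* in these cells lies outside the interval. In mature neutrophil-like cells it was 0.20 (95% interval -0.41 to 0.81), with means of 19.3 ± 5.32, 19.9 ± 1.29, and 26.6 ± 13.01 CPM in NZB, NZW, and NZBWF1. The fold change is scaled by TMM factors and the CPM by total UMIs, and NZB and NZW are in opposite order on the 2 scales. For NZBWF1 against NZW in these neutrophil-like cells the log2 fold change was 0.37 (95% interval -0.21 to 0.95).

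*Myd88* passed no strain test in any of its 7 classes. Its values in plasmacytoid dendritic cell-like cells were 50.3, 44.5, and 37.1 CPM in NZB, 19.2, 30.2, and 31.0 in NZW, and 45.5, 44.0, and 39.7 in NZBWF1. All NZW mice were below the others, but the log2 fold change of NZB against NZW of 0.75 did not pass (SE 0.351, edgeR adjusted p = 0.246). In classical monocyte-like cells the NZB mice ran from 33.8 to 86.8 CPM, around the 45.7 to 70.5 CPM of NZW. NZB replicate 1 was the low mouse, and without it *Myd88* passed there for NZB against NZW (0.53, edgeR adjusted p = 0.0165) and for NZBWF1 against NZB (-0.58, edgeR adjusted p = 0.0153).

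The comparison of NZBWF1 with NZB asked whether the cross kept the levels of that parent. *Tlr4* was lower in classical monocyte-like cells of NZBWF1 (log2 fold change -1.17, SE 0.313, edgeR adjusted p = 0.00826), where 15.7% of genes passed, although the mice of the strains overlapped. In the same cells, precursor markers summed to 696.3 to 705.9 CPM in NZBWF1 against 1032 to 1582 in NZB, and nonclassical monocyte markers to 376.2 to 403.2 against 223.8 to 254.6, and their part was not tested. It did not pass without NZB replicate 2 (-0.97, edgeR adjusted p = 0.111) or NZBWF1 replicate 2 (-0.75, edgeR adjusted p = 0.165). Without cells with UMIs of division genes, which were more frequent in NZB, it was -1.23 and did not pass (edgeR adjusted p = 0.0655), nor did it with at least 2000 UMIs and 1000 genes per cell (-0.99, edgeR adjusted p = 0.106). *Tlr2* in the same class had a log2 fold change of -0.37 for NZBWF1 against NZB (edgeR adjusted p = 0.227), and passed at -0.81 without cells with UMIs of division genes (edgeR adjusted p = 0.00846). *Cd14* was lower in precursor-like cells (-1.25, SE 0.337, edgeR adjusted p = 0.0367), where 1.34% of genes passed. This call was lost in edgeR without NZB replicate 2 (-1.22, adjusted p = 0.224), NZB replicate 3 (-1.25, adjusted p = 0.0767), and NZBWF1 replicates 1 (-1.16, adjusted p = 0.0885), 2 (-1.50, adjusted p = 0.0846), and 3 (-1.22, adjusted p = 0.125). It was also lost with stricter gates (edgeR adjusted p = 0.0918), with cells of several gates assigned to a class (edgeR adjusted p = 0.0606), and without the 5% of cells with most UMIs (edgeR adjusted p = 0.0599). Over the alternatives its log2 fold change ran from -1.50 to -0.79. UMIs of division genes were in 75.6% to 89.1% of these cells in NZBWF1 and 89.3% to 93.1% in NZB, and their part was not tested.

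In mature neutrophil-like cells, where 5.61% of genes passed, NZBWF1 was lower than NZB in *Tlr2* and *Cd14*. *Cd14* stood at 58.7, 64.0, and 60.1 CPM in NZB, 47.2, 42.9, and 48.9 in NZBWF1, and 71.6, 49.7, and 60.8 in NZW, so that the NZBWF1 mice were the lowest of all 9. The log2 fold changes against NZB were -0.71 for *Tlr2* (SE 0.193, edgeR adjusted p = 0.0362) and -0.67 for *Cd14* (SE 0.170, edgeR adjusted p = 0.0263). *Cd14* did not pass against NZW (-0.44, edgeR adjusted p = 0.532) or against the mean of the parents' logs (-0.56, edgeR adjusted p = 0.221). Some marker sums of other cells were higher in this class in NZBWF1 than in NZB. They were 179.7 to 236.2 against 18.7 to 27.0 CPM for T cells and 216.7 to 551.2 against 72.7 to 109.8 for the B lineage. For macrophages they were 145.7 to 174.2 against 103.9 to 129.8, for classical monocytes 25.5 to 62.9 against 13.1 to 19.4, and for nonclassical monocytes 56.5 to 66.0 against 29.3 to 35.2. Those of immature neutrophils (108700 to 121100 against 125300 to 136000) and of mature neutrophils (331700 to 334100 against 334200 to 369600) were lower, and those of NK cells overlapped. The part of these markers was not tested. Each call was lost when single mice were left out. For *Tlr2* in edgeR these were NZB replicates 1 (-0.65, adjusted p = 0.141), 2 (-0.79, 0.0530), and 3 (-0.73, 0.102), NZW replicate 3 (-0.72, 0.0560), and NZBWF1 replicates 1 (-0.62, 0.0514) and 2 (-0.70, 0.120). For *Cd14* in edgeR they were NZB replicates 1 (-0.68, adjusted p = 0.0761), 2 (-0.65, 0.0754), and 3 (-0.72, 0.0573) and NZBWF1 replicates 2 (-0.63, 0.104) and 3 (-0.70, 0.0758). Stricter gates ended both calls in edgeR (adjusted p = 0.0693 for *Tlr2* and 0.0565 for *Cd14*), and *Tlr2* was lost without the 5% of cells with most UMIs (adjusted p = 0.0801) and without cells with UMIs of division genes (adjusted p = 0.0582). Here the scale mattered. With total UMIs in place of TMM factors, the median log2 fold change of all genes of this class was 0.32 (0.034 with TMM). The values of *Tlr2* and *Cd14* against NZB were then -0.42 and -0.39 (edgeR adjusted p = 0.147 and 0.114).

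*Unc93b1* was the member with a call higher in NZBWF1 than in NZB, in 1 of its 9 tested classes. In classical monocyte-like cells NZBWF1 stood at 364.8, 361.1, and 354.0 CPM, NZB at 283.2, 291.3, and 280.6, and NZW at 274.1, 341.6, and 316.8. The NZBWF1 mice were above all mice of both parents. Some markers of other classes differed in this comparison in the same cells, in both directions. In NZBWF1 against NZB, the sums were 55.5 to 78.3 against 26.0 to 27.8 CPM for conventional dendritic cells (8 genes), 90.0 to 125.9 against 58.5 to 80.5 for plasmacytoid dendritic cells (6 genes), and 134.6 to 154.3 against 85.1 to 96.1 for macrophages (8 genes). Their part was not tested. The log2 fold change against NZB was 0.30 (SE 0.101, edgeR adjusted p = 0.0384) and that against NZW 0.20 (SE 0.0978, edgeR adjusted p = 0.545). In mature neutrophil-like cells it was 0.39 against NZB and did not pass (edgeR adjusted p = 0.117), although the mice did not overlap. Erythroid cell-like cells, without a call, stood at 6.525, 7.306, and 10.97 CPM in NZBWF1 and 3.455, 2.725, and 3.609 in NZB. In plasmacytoid dendritic cell-like cells the 2 strains overlapped. The call against NZB was lost in edgeR without NZB replicates 2 (0.32, adjusted p = 0.0820) or 3 (0.26, 0.130) and without NZBWF1 replicates 1 (0.29, 0.0567), 2 (0.29, 0.134), or 3 (0.30, 0.0913). It was lost as well with no filter beyond 1 count (edgeR adjusted p = 0.0554), stricter gates (0.0577), cells of several gates assigned (0.108), and at least 2000 UMIs and 1000 genes (0.273). In DESeq2, 0 of the 5 calls against NZB passed.

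Other genes of the pathway were read from a list of 42, also made with earlier results of these data known. Of these, 38 were tested in at least 1 class, giving 224 tests per comparison. Between NZB and NZW, 14 tests were higher in NZB and 15 lower, 12.9% of the tests, beside 8.91% over all genes. Accessory and trafficking proteins had 10 higher and 5 lower of 59 tests, while adaptors and kinases had 1 and 3 of 77. Transcription factors had 2 higher and 4 lower of 47 tests, and the brakes of the pathway 0 and 3 of 37. Of the 6 other receptors, 3 were tested, in 4 tests, with 1 higher and 0 lower and a median log2 fold change of -0.20. The call was *Tlr6*, a partner of *Tlr2*, named after its value was seen. It was higher in NZB in classical monocyte-like cells (log2 fold change 1.52, SE 0.389, edgeR adjusted p = 0.00351).

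The chaperones that fold Toll-like receptors differed in opposite directions. *Cnpy3*, which with *Hsp90b1* releases the receptors from the endoplasmic reticulum, was lower in NZB in 4 classes. In mature neutrophil-like cells it stood at 12.5, 17.9, and 22.9 CPM in the NZB mice, 70.9, 81.3, and 88.1 in NZW, and 41.2, 51.3, and 70.8 in NZBWF1, ordered from lowest to highest. NZBWF1 lay between the parents there. The log2 fold changes of NZB against NZW were -1.93 in mature neutrophil-like (SE 0.222, edgeR adjusted p = 6.25e-06), -1.59 in immature neutrophil-like, -0.68 in precursor-like, and -0.67 in classical monocyte-like cells. *Hsp90b1* was higher in NZB in 4 classes, with 683.2, 763.0, and 784.6 CPM in classical monocyte-like cells of NZB, 390.0, 391.7, and 395.1 in NZW, and 432.8, 460.9, and 531.4 in NZBWF1. Its log2 fold changes were 0.95 in these cells (SE 0.0971, edgeR adjusted p = 1.72e-09), 0.94 in precursor-like, 0.53 in immature neutrophil-like, and 0.36 in plasmacytoid dendritic cell-like cells. *Lbp*, which extracts lipopolysaccharide for *Cd14*, was higher in NZB in classical monocyte-like (1.997, SE 0.231, edgeR adjusted p = 2.83e-07), mature neutrophil-like (0.99), and immature neutrophil-like cells (0.50). In classical monocyte-like cells, 23.6% of genes passed, and division UMIs and precursor markers were higher in NZB, as given above. Mean *Hsp90b1* in precursor-like cells was 1191 CPM in NZB and 566.5 in NZW, against 743.6 and 392.2 in classical monocyte-like cells. The part of these markers in the calls of pathway genes was not tested. No fit without a mouse or without dividing cells is given for these genes.

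Against NZB, NZBWF1 had 9 tests higher and 7 lower of the 224, 7.14%, beside 3.88% over all genes. *Hsp90b1* was lower in NZBWF1 in classical monocyte-like (-0.70) and precursor-like cells (-0.66), *Lbp* in classical monocyte-like (-1.48) and immature neutrophil-like cells (-0.43), and *Cnpy3* was higher in mature (1.33) and immature neutrophil-like cells (0.89). Against NZW, 0 were higher and 2 lower of the 224, 0.893%, beside 1.13% over all genes. The 2 were *Cnpy3* in immature neutrophil-like cells (-0.70, SE 0.144, edgeR adjusted p = 0.00151) and the scavenger receptor *Cd36* in erythroid cell-like cells (-1.44, SE 0.362, edgeR adjusted p = 0.0355). Against the mean of the parents' logs, 1 test was higher and 0 lower, 0.446%, beside 0.529% over all genes. The call was *Irf7*, the transcription factor through which endosomal receptors induce interferon, higher in classical monocyte-like cells (0.90, SE 0.198, edgeR adjusted p = 0.0280). It stood there at 62.1, 83.3, and 128.4 CPM in NZBWF1, 32.6, 39.0, and 42.5 in NZB, and 52.5, 61.1, and 65.6 in NZW, lowest to highest. The calls of *Irf7* in mature neutrophil-like cells went the other way, with log2 fold changes of 1.08 for NZB against NZW (SE 0.235, edgeR adjusted p = 0.00418) and -1.06 for NZBWF1 against NZB (SE 0.231, edgeR adjusted p = 0.00960). *Peli1*, a ubiquitin ligase of the pathway, had the next smallest p against the parents, in classical monocyte-like cells, and did not pass (0.35, SE 0.123, edgeR adjusted p = 0.140).

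**Figure D5:**
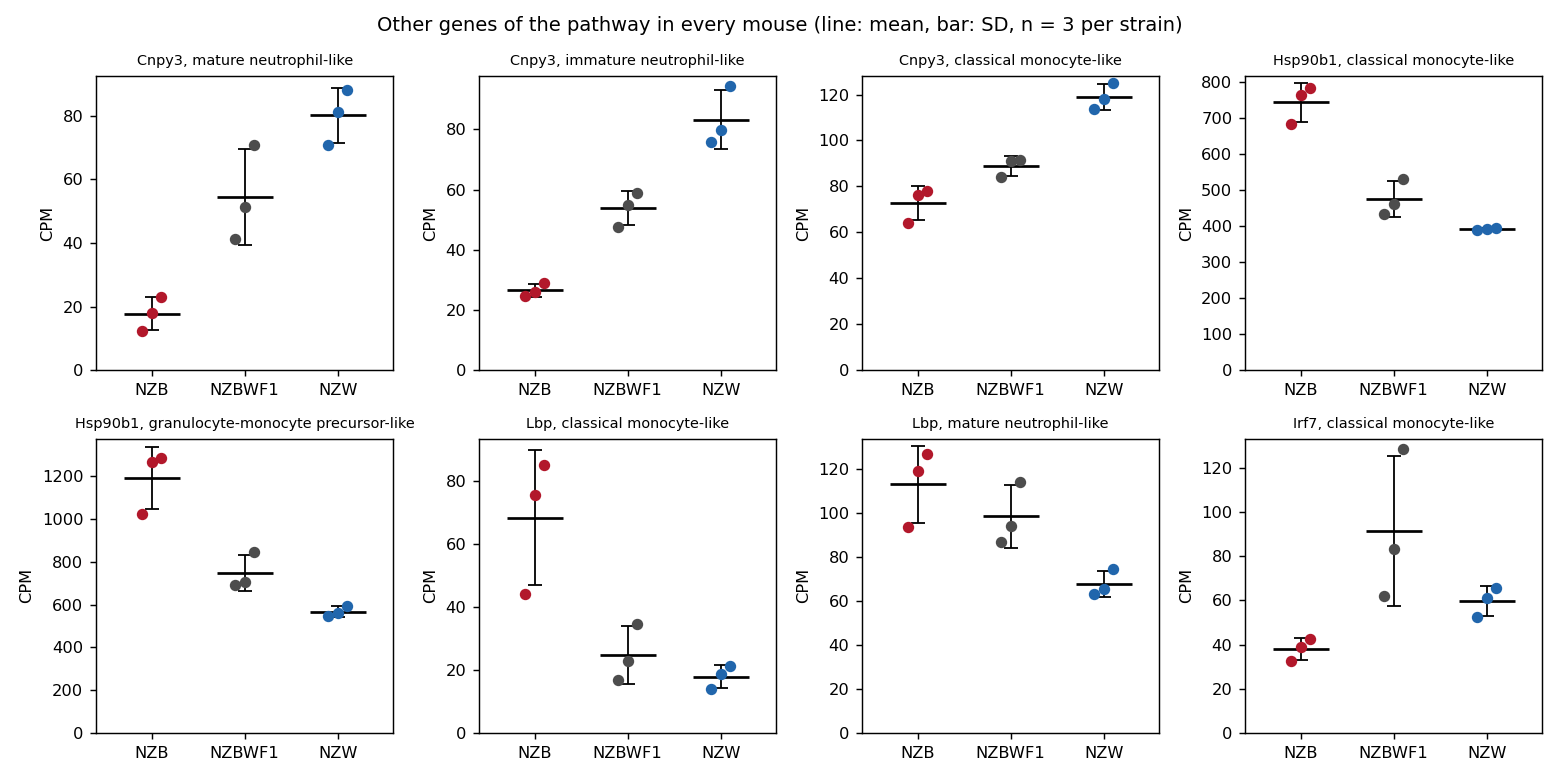
CPM (y axis, from 0) of the other pathway genes named in the text, 1 point per mouse, with the mean (line) and SD (bar) of the 3 mice of a strain. In the classes drawn, *Cnpy3* is lowest in the NZB mice and the means of *Hsp90b1* and *Lbp* are highest in NZB, while *Irf7* is lowest in NZB in classical monocyte-like cells, the only class drawn for it.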

How the data were processed

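The authors sequenced 1 droplet library (10x 3' v3.1 chemistry) per mouse and made UMI counts per gene and barcode with Cell Ranger 3.1.0 after bcl2fastq 2.20, on mm10 per the labels. The deposited matrix holds these whole counts for 9 merged libraries, without normalization per cell. The sources do not state whether depth was equalized on merging. Barcode suffixes were matched to mice through the deposited order of aggregation.

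Cells passing the limits were gated on fixed marker lists, with thresholds set after the distributions of the markers were seen. UMIs were summed per mouse and class (at least 10 cells per mouse, at least 2 mice per strain) and tested with edgeR 4.0.16 (R 4.3.3, TMM, filterByExpr, robust quasi-likelihood, 4 contrasts of 3 strains). The Benjamini-Hochberg correction was made over all genes of a class, with a threshold of 0.05. SE was taken from the fold change and the F statistic. Levels between classes were compared by exact sign-flip permutation over mice, with a pseudocount of 1 CPM. The makeup of free RNA was read from barcodes under 100 UMIs and its amount from neutrophil granule genes in erythroid cell-like cells. The strain fit was tried on counts simulated for classical monocyte-like and mature B cell-like cells. The test between classes was tried on those of mature neutrophil-like and classical monocyte-like cells. Both used a fixed spread between mice and changed only genes of higher counts. Members with fewer UMIs, such as *Cd14* in precursor-like cells (123), were not covered. Alternatives were DESeq2 1.42.0, other scaling, filters, limits, and gates, a block for the replicate number, removal of expected free RNA, and fits with 1 mouse left out. Added after the data were seen were total UMIs as the scale, the removal of cells with UMIs of division genes, the highest class against each other class, and the test between classes.

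The members, the marker lists, and the list of pathway genes were chosen with earlier results of these data known. Named beside the members were pathway genes called in at least 3 classes, the 2 of smallest adjusted p per contrast, and the 2 most similar genes of each member. *Tlr6* was named after its value was seen. The labels name separate mice, so p-values measure the spread between animals of a strain, which includes any spread between their libraries. The mice were delivered together. The study speaks of batches, but no source used here assigns mice to them, so no value within batches is given.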

Additional observations from a re-analysis of the deposited data

Results flagged for a closer look

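The difference between NZB and NZW was compared between 5 classes, in 10 pairs, with mouse as a block (edgeR, 59 tests of members per comparison of strains), a test chosen after the data were seen. For NZB against NZW, 7 tests passed, all with plasmacytoid dendritic cell-like cells. Of these, 4 were tests of *Cd14*, which are given below as a description and not as results. For the pairs of these cells with the 4 classes named next, 3.87%, 3.44%, 3.04%, and 6.93% of all genes passed the same test, in that order. The log2 fold change of *Cd14* was lower in these cells than in the other class of each pair. The differences were -2.397 for granulocyte-monocyte precursor-like, -2.242 for immature neutrophil-like, -1.627 for mature neutrophil-like, and -2.324 for classical monocyte-like cells. *Cd14* in plasmacytoid dendritic cell-like cells stood at 9.43, 7.63, and 16.8 CPM in NZB and 48.0, 12.9, and 31.0 in NZW, from 60 UMIs in all 9 mice, of which free RNA was expected to give 3.01%. *Cd14* did not pass the filter on low counts in plasmacytoid dendritic cell-like cells alone and entered these 4 tests through the other class of each pair, so its values are given as a description. The markers of classical monocytes were higher in the same NZW cells, as given for *Unc93b1*, and their part was not tested.

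For *Unc93b1*, the log2 fold change of NZB against NZW was higher in plasmacytoid dendritic cell-like cells by 0.668 than in immature neutrophil-like (adjusted p = 0.0374), by 0.811 than in mature neutrophil-like (0.0137), and by 0.6946 than in classical monocyte-like cells (0.000290) in edgeR. For NZBWF1 against NZB, the only member to pass was *Unc93b1*, at -0.5342 between plasmacytoid dendritic cell-like and classical monocyte-like cells (edgeR adjusted p = 0.0109), where 3.71% of all genes passed.

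Members were also counted in cells that entered no comparison. In the 8990 cells of no class, the levels over all mice were 2.539 CPM for *Tlr1*, 8.447 for *Tlr2*, 4.385 for *Tlr4*, 8.493 for *Cd14*, 4.477 for *Tlr7*, 0.1846 for *Tlr9*, 4.016 for *Tlr13*, 174.5 for *Unc93b1*, and 25.29 for *Myd88*. In the 3567 cells that passed more than 1 gate, they were 2.66 CPM for *Tlr1*, 19.57 for *Tlr2*, 8.232 for *Tlr4*, 24.32 for *Cd14*, 3.609 for *Tlr7*, 7.409 for *Tlr13*, 183.4 for *Unc93b1*, and 31.72 for *Myd88*.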

How the results depend on the processing

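Between NZB and NZW, the 7 calls became 4 with at least 2000 UMIs and 1000 genes per cell, and 3 to 8 when single mice were left out (3 without NZB replicate 2). Against NZB, the 5 calls of NZBWF1 became 0 with DESeq2, 2 with at least 2000 UMIs and 1000 genes, 1 with stricter gates, 3 without the 5% of cells with most UMIs, and 0 to 5 when single mice were left out (0 without NZB replicate 2 or NZBWF1 replicate 2, 1 without NZB replicate 3). The limits of 2000 UMIs and 1000 genes leave fewer cells and 19 tests, and the calls of *Tlr2* and *Cd14* in mature neutrophil-like and of *Tlr4* in immature neutrophil-like cells gave no value there. Without cells with UMIs of division genes, *Cd14* in precursor-like and *Tlr4* in immature neutrophil-like cells gave none. The counts of 0 for the other comparisons and for neighbouring classes were 0 under each alternative. Of 256 values of single calls under alternatives, 200 kept direction and threshold, 56 kept direction only, and 0 changed direction. With total UMIs as the scale, *Unc93b1* in mature neutrophil-like cells passed (-0.48 for NZB against NZW, 0.67 for NZBWF1 against NZB), where the median of all genes was -0.28 and 0.32 (-0.030 and 0.034 with TMM). In no class did every pair of mice with the same replicate number deviate together. The correlations of such pairs were -0.047 to 0.045 in classical monocyte-like and -0.14 to 0.33 in mature neutrophil-like cells, where those of replicates 1 and 2 were 0.20 to 0.33 and those of replicate 3 -0.14 to 0.046. The numbers were therefore not read as a pairing in the main fit, although other measures followed them. Free RNA per median cell rose from replicate 1 to 3 in NZB (1.5%, 1.511%, and 2.296%), NZW (1.819%, 1.993%, and 4.317%), and NZBWF1 (0.5073%, 1.856%, and 3.661%). Classical monocyte-like cells were fewest in replicate 1 and most in replicate 2 of NZB (210, 598, and 310), NZW (473, 781, and 663), and NZBWF1 (196, 839, and 585). Whether mice of the same number were processed together was not tested. A replicate block gave 7 calls for NZB against NZW and 6 for NZBWF1 against NZB, the latter with *Myd88* in mature neutrophil-like cells (-0.53, edgeR adjusted p = 0.0462). Other calls that appeared without a mouse were *Cd14* in classical monocyte-like cells for NZBWF1 against NZB without NZB replicate 1 (-0.80, edgeR adjusted p = 0.00946) or NZBWF1 replicate 3 (-1.01, 0.0104), which also passed with no filter beyond 1 count (-0.60, 0.0365), cells of several gates assigned (-0.66, 0.0381), and at least 2000 UMIs and 1000 genes (-0.97, 0.0235), where it is 1 of the 2 calls, *Myd88* in mature neutrophil-like cells without NZBWF1 replicate 1 (-0.70, 0.0171), and *Cd14* in plasmacytoid dendritic cell-like cells for NZB against NZW without NZW replicate 2 (-1.75, 0.0437). Depth limits *Tlr1*, *Tlr9*, and the small classes, and the causes of the changes were not tested.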
